A study of Mus musculus with 12 samples.

Results

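The core circadian clock genes of the liver were described across the 4 genotype and diet groups of the series. They are the 10 genes Arntl, Npas2, Per1, Per2, Per3, Cry1, Ciart, Nr1d1, Nr1d2 and Dbp, taken from the count table by gene symbol out of 55357 genes, and all 10 were among the 17358 genes that passed the filter on low counts. All animals were male C57BL/6J mice with floxed Ppara alleles (PPARα fl/fl), put on their diet at 7 weeks of age and examined after 6 weeks, at 13 weeks. Mice without the Cre transgene (AlbuminCre +/+) are called WT, and mice with it (AlbuminCre Tg/+) are the hepatocyte-specific PPARα KO, since the albumin promoter drives Cre in hepatocytes and leaves Ppara in other liver cells. Mice ate freely either a chow diet or CDAHFD, a high-fat diet with defined L-amino acids that lacks choline and gives fatty liver with inflammation. The labels gave 4 libraries for WT chow, 3 for WT CDAHFD, 2 for KO chow and 3 for KO CDAHFD. The house had 14 hours of light and 10 hours of dark a day, and the hour at which livers were taken is not given in the sources used here, so hour and group cannot be told apart. Each library was taken as 1 mouse, and the p-values measure only the spread between these libraries.

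The circadian clock is a feedback loop of transcription factors that runs in nearly every cell, hepatocytes included. BMAL1, the product of Arntl, pairs with CLOCK or NPAS2 and switches on the Per and Cry genes, Ciart, Nr1d1, Nr1d2 and Dbp through E-boxes in their regulatory DNA. PER and CRY proteins and CIART (CHRONO) then repress this pair, the REV-ERB receptors encoded by Nr1d1 and Nr1d2 repress Arntl, Npas2 and Cry1 through ROR elements, and DBP acts on D-boxes. In mouse liver the messages of Arntl and Npas2 are known to peak at a time of day when Dbp and Nr1d1 are low.

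The letters of these elements were searched in the RefSeq promoter windows of GRCm38.p6, which run from 250 bases before to 50 after a gene's start, on both strands. Windows were at hand for 9 of the 10 genes, as 11 windows. Those shown here carry an element of the loop in letters that match exactly, in capitals. The E-box CACGTG was in the windows of Ciart, Cry1 and Per1, and in 7.15% of all 32851 windows. Ciart held 3 E-boxes, which began at -116, -58 and -44 relative to its start, in the 250 bases before the start (chr3:95882229-95882478, minus strand).
Ciart: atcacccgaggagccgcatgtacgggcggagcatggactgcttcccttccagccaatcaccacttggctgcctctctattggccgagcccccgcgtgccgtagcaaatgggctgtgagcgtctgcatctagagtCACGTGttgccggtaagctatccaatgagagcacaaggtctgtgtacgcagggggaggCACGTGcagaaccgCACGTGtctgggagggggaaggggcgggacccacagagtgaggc
Cry1 held an E-box that began at -60 and, on the other strand, the related letters CACGTT at -79 (chr10:85185055-85185304, minus strand), and both are in capitals.
Cry1: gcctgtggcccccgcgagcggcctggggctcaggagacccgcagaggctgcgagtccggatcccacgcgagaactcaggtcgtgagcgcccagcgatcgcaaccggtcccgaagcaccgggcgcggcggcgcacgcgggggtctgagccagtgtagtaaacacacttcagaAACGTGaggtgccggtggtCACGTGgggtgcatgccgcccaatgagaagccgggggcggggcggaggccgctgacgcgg
Per1 held 1 E-box, at -166 from a start (chr11:69098699-69098948, plus strand).
Per1: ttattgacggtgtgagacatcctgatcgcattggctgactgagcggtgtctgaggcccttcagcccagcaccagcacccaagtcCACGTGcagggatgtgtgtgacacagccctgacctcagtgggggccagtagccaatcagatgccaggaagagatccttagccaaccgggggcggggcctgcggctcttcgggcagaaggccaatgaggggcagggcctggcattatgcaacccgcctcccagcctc
The D-box, searched as TTATGTAA or TTACGTAA, was in 1.06% of all windows and, among the clock genes, in that of Per3, at -205 and -158 (chr4:151044666-151044915, minus strand).
Per3: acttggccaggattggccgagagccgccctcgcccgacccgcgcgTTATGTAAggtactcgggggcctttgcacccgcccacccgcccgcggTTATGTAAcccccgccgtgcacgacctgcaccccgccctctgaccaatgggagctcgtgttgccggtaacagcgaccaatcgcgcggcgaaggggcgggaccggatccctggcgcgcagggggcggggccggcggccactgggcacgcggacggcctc
The ROR element, searched as TAGGTCA or TGGGTCA, was in 6.45% of all windows. Arntl held it 31 to 37 bases after a start (chr7:113207530-113207559, plus strand), and 30 bases around it are shown.
Arntl: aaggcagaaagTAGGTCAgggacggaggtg
The letters CACGTT were in 4.68% of all windows and were found in those of Cry1 and Nr1d1, the latter at -28. The cAMP response element TGACGTCA was in 1.79% of all windows and in 0 of the clock gene windows. A match of letters is a description of the window and not a site of binding.

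Total counts ran from 29906785 to 43551003 per library, and the scaling factors of the TMM method (trimmed mean of M values) were lowest in WT chow, at 0.729 to 0.827, followed by 1.03 and 1.04 for KO chow and by 1.12 to 1.26 under CDAHFD. All levels are CPM of the TMM-scaled library unless stated. Ppara, the targeted gene, stood at 120, 96.2, 238 and 226 CPM in WT chow, 59.5, 75.5 and 73.5 in WT CDAHFD, 14.4 and 38.7 in KO chow, and 36.3, 20.7 and 51.9 in KO CDAHFD, so every KO library was below every WT library. Summed levels of the 5 hepatocyte markers found ranged over 79612 to 99054 CPM in WT chow, 41028 to 50619 in WT CDAHFD, 68822 to 78844 in KO chow and 38995 to 53411 in KO CDAHFD, and those of 6 stellate cell markers over 243 to 327, 879 to 933, 840 to 852 and 921 to 1122 in the same order. Those of 5 cholangiocyte markers ranged over 46.05 to 79.4, 358 to 578, 165 to 288 and 568 to 883 CPM, and those of 6 Kupffer cell and macrophage markers over 197 to 349, 438 to 536, 470 to 607 and 350 to 509 CPM, again in that order. None of these markers was at 0 in a group. In whole liver, fewer cells of a type and less RNA per cell cannot be told apart, and the part of this mixture in the clock gene levels was not tested. In the clock genes other than Per2, WT chow replicates 3 and 4 stood far from replicates 1 and 2. In those other than Per1 and Per2, the KO chow libraries stood far from each other. In all the clock genes KO CDAHFD replicate 3 stood far from replicates 1 and 2. Results are therefore given per library first.

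Arntl (ENSMUSG00000055116, chr7:113207465-113314126, plus strand) encodes the partner that every activating pair of the loop needs. It stood at 46.0, 48.6, 5.30 and 5.73 CPM in WT chow replicates 1 to 4 and at 45.3 and 15.4 CPM in KO chow replicates 1 and 2. Under CDAHFD it stood at 25.6, 35.6 and 34.9 CPM in WT replicates 1 to 3 and at 36.4, 35.7 and 2.88 CPM in the KO replicates. The highest library of WT chow was 9.17 times its lowest, and that of KO CDAHFD 12.7 times, against 1.39 times in WT CDAHFD. The group means were 26.4 ± 24.2 (SD, n = 4), 32.0 ± 5.62 (n = 3), 30.3 ± 21.1 (n = 2) and 25.0 ± 19.2 CPM (n = 3) for WT chow, WT CDAHFD, KO chow and KO CDAHFD, and every pair of groups overlapped.

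Npas2 (ENSMUSG00000026077, chr1:39193731-39363236, plus strand), which can take the place of CLOCK beside BMAL1, followed nearly the same order. It stood at 12.6, 17.8, 0.534 and 0.367 CPM in WT chow and at 14.8 and 2.62 CPM in KO chow. In WT CDAHFD it stood at 6.54, 11.4 and 8.28 CPM, and in KO CDAHFD at 11.8, 11.2 and 1.67 CPM. The low values of WT chow rested on 16 and 8 counts. Taking the 13 pairs of libraries that lie within a group, Npas2 was higher in the same library as Arntl in 12, as a description over pairs that share libraries. The 4 group means lay between 7.83 and 8.75 CPM.

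**Figure D1:**
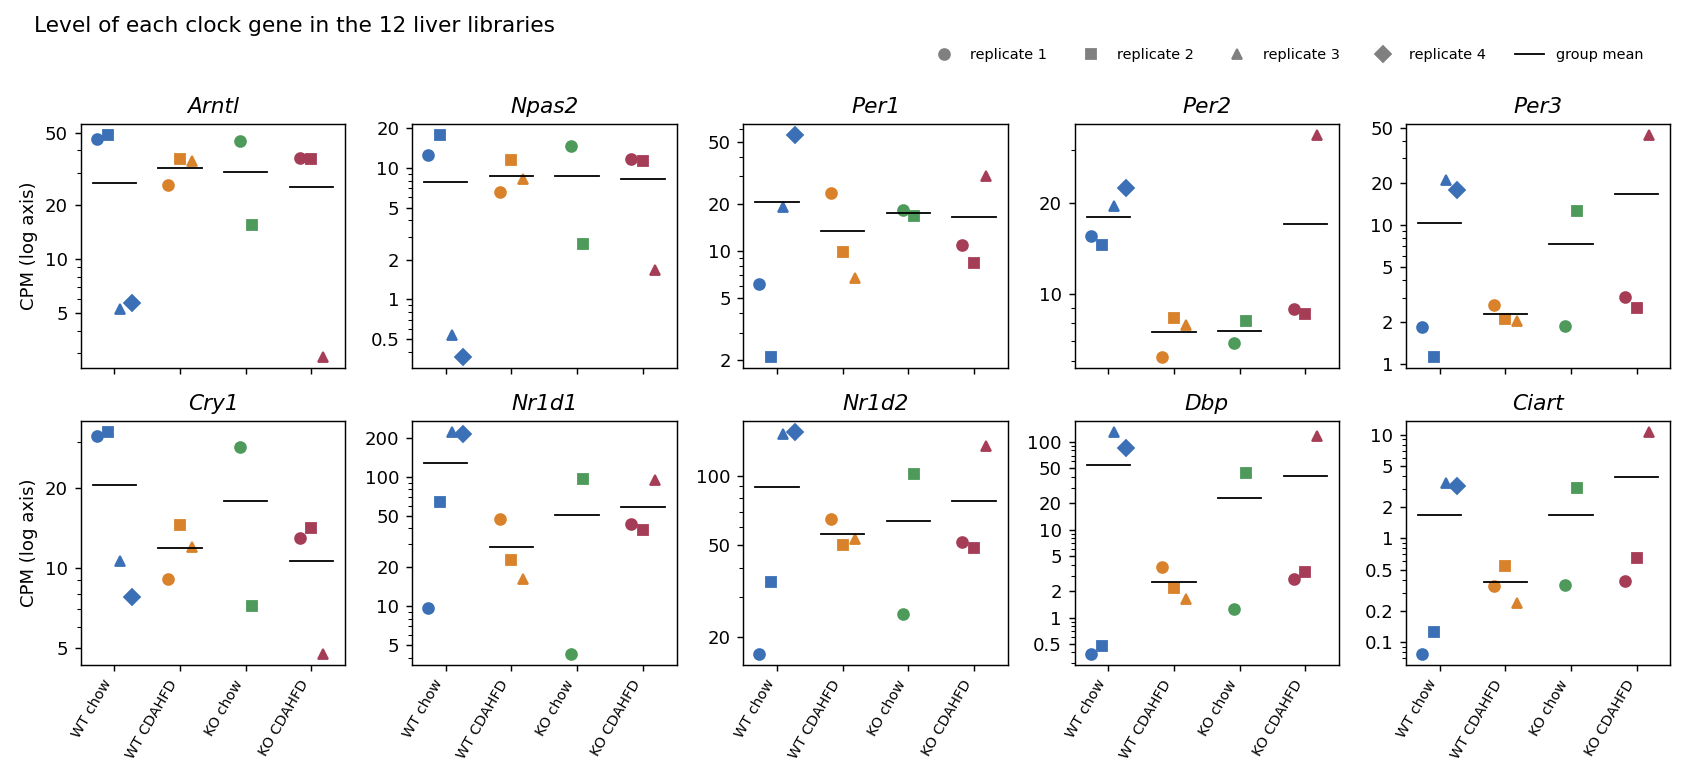
Level of the 10 clock genes in each of the 12 liver libraries, in CPM on a log axis, with replicates as symbols and a line at each group mean. WT chow replicates 3 and 4, KO chow replicate 2 and KO CDAHFD replicate 3 were the lowest libraries of their groups for Arntl and Npas2 and the highest for Dbp and Per3, while Per2 in WT chow lay between 14.6 and 22.4 CPM, above WT CDAHFD and KO chow.

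Among the repressors, Cry1 (ENSMUSG00000020038, chr10:85131700-85185064, minus strand) lay with Arntl. It stood at 31.7, 32.7, 10.6 and 7.75 CPM in WT chow and at 28.7 and 7.18 CPM in KO chow. It stood at 9.08, 14.5 and 12.04 CPM in WT CDAHFD and at 13.02, 14.2 and 4.76 CPM in KO CDAHFD. In 11 of the 13 within-group pairs the library higher in Arntl was also higher in Cry1. The highest CDAHFD library was thus at 14.5 CPM, whereas WT chow replicates 1 and 2 and KO chow replicate 1 were at 28.7 to 32.7 CPM and the other 3 chow libraries at 7.18 to 10.6 CPM.

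The Per genes encode the PER repressors, and Per1 and Per2 are also induced acutely by hormonal and cAMP signals. Per1 (ENSMUSG00000020893, chr11:69095217-69109960, plus strand) stood at 6.17, 2.11, 19.1 and 55.3 CPM in WT chow and at 18.2 and 16.8 CPM in KO chow. It stood at 23.5, 9.90 and 6.69 CPM in WT CDAHFD and at 10.96, 8.39 and 30.2 CPM in KO CDAHFD. In the 2 KO chow libraries Per1 was nearly level, although Arntl differed 2.94-fold and Dbp 35.8-fold between them. Per1 was ordered opposite to Arntl in 9 of the 13 pairs.

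Per3 (ENSMUSG00000028957, chr4:151003652-151044665, minus strand) was the Per gene with the widest spread. It stood at 1.86, 1.13, 20.8 and 17.7 CPM in WT chow and at 1.88 and 12.7 CPM in KO chow. It stood at 2.66, 2.12 and 2.05 CPM in WT CDAHFD and at 3.03, 2.54 and 44.2 CPM in KO CDAHFD. The KO CDAHFD replicate 3 library was thus above every other library of the series, and Per3 was ordered opposite to Arntl in 11 of 13 pairs. Camta1, whose annotated span overlaps that of Per3 without sharing an exon base, held 105 to 166 counts per library.

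Per2 (ENSMUSG00000055866, chr1:91415982-91459324, minus strand) had the smallest spread within groups of the 10 genes. It stood at 15.6, 14.6, 19.6 and 22.4 CPM in WT chow and at 6.91 and 8.17 CPM in KO chow. It stood at 6.21, 8.33 and 7.91 CPM in WT CDAHFD and at 8.95, 8.58 and 33.7 CPM in KO CDAHFD. Every WT chow library was above every WT CDAHFD and KO chow library, and every KO CDAHFD library was above every WT CDAHFD and KO chow library, the last by a small margin for replicates 1 and 2. With library size as the only scaling the KO CDAHFD and WT CDAHFD libraries overlapped, since KO CDAHFD replicate 2 at 9.69 CPM was below WT CDAHFD replicate 2 at 9.86 CPM. With TMM scaling, 4 pairs of groups did not overlap among the 60 pairs of groups over the 10 genes, all of Per2 and 0 of another gene, whereas over all genes tested 44.3% of such pairs did not overlap. Of all genes, 27.4% had every WT chow library above every WT CDAHFD library and 23.0% above every KO chow library, and 9.47% and 19.9% had every KO CDAHFD library above every WT CDAHFD and every KO chow library. Its order was opposite to that of Arntl in 8 of the 13 within-group pairs.

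Ciart (ENSMUSG00000038550, chr3:95878503-95882251, minus strand), the least abundant of the 10, stood at 0.0777, 0.126, 3.401 and 3.16 CPM in WT chow and at 0.354 and 3.03 CPM in KO chow. It stood at 0.348, 0.544 and 0.240 CPM in WT CDAHFD and at 0.388, 0.642 and 10.6 CPM in KO CDAHFD. WT chow replicate 1 held 2 counts of it and replicate 2 held 4, so that these levels lie near 0.117 CPM and 0.0944 CPM, the levels of 3 counts in these libraries, which a count of 0 would allow, counting error alone considered. The other libraries held from 11 to 447 counts. Ciart was ordered opposite to Arntl in 10 of 13 pairs.

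Nr1d1 and Nr1d2 encode the nuclear receptors REV-ERBα and REV-ERBβ. Nr1d1 (ENSMUSG00000020889, chr11:98767932-98775333, minus strand) stood at 9.71, 63.7, 223 and 216 CPM in WT chow and at 4.30 and 96.4 CPM in KO chow. It stood at 47.5, 22.8 and 16.2 CPM in WT CDAHFD and at 43.2, 38.5 and 94.4 CPM in KO CDAHFD. WT chow replicates 1 and 2 lay close together in Arntl, Cry1 and Dbp but not in Nr1d1. Nr1d2 (ENSMUSG00000021775, chr14:18204054-18239127, minus strand) varied less, with 17.0, 34.9, 151 and 155 CPM in WT chow and 25.3 and 102 CPM in KO chow. It stood at 65.2, 50.3 and 53.2 CPM in WT CDAHFD and at 51.8, 48.6 and 134 CPM in KO CDAHFD. Within a library the log2 ratio of Nr1d1 to Nr1d2 counts ran from -2.56 in KO chow replicate 1 to 0.87 in WT chow replicate 2, and both genes were ordered opposite to Arntl in 10 of 13 pairs. Of the exon bases of Nr1d1, 8.55% are shared with Thra on the opposite strand, which held 365 to 935 counts per library, and in these non-directional libraries reads in the overlap cannot be assigned by strand.

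Dbp (ENSMUSG00000059824, chr7:45705088-45710203, plus strand), a PAR bZIP factor that passes the rhythm on to metabolic genes, had the widest range of the 10. It stood at 0.388, 0.472, 130 and 85.9 CPM in WT chow, from 10, 15, 3908 and 1873 counts, and at 1.25 and 44.8 CPM in KO chow. It stood at 3.75, 2.16 and 1.62 CPM in WT CDAHFD and at 2.74, 3.34 and 117 CPM in KO CDAHFD. WT chow thus held both the lowest and the highest libraries of the series, 336-fold apart, and every pair of groups overlapped. Dbp shares 18.0% of its exon bases with Sphk2 on the opposite strand, which held 1224 to 2810 counts per library, so part of its reads cannot be assigned by strand. It was ordered opposite to Arntl in 11 of 13 pairs.

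The ratio of Arntl to Dbp counts within a library, which no scaling between libraries can change, put these levels on 1 axis. Its log2 was 6.89, 6.69, -4.62 and -3.91 in WT chow and 5.18 and -1.54 in KO chow. It was 2.77, 4.05 and 4.43 in WT CDAHFD and 3.73, 3.42 and -5.34 in KO CDAHFD. Arntl exceeded Dbp in 8 of the 12 libraries, and in WT CDAHFD in all 3. The log2 ratio of Npas2 to Per3 had the same sign as that of Arntl to Dbp in every library, and ran from -5.59 to 3.98. The ratio of Cry1 to Arntl moved less, from -1.53 to 1.01 on the log2 scale, and it was above 0 in WT chow replicates 3 and 4 and KO CDAHFD replicate 3. In the CDAHFD libraries other than KO CDAHFD replicate 3 it was between -1.53 and -1.30, below every chow library, of which KO chow replicate 2 was the lowest at -1.10.

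**Figure D2:**
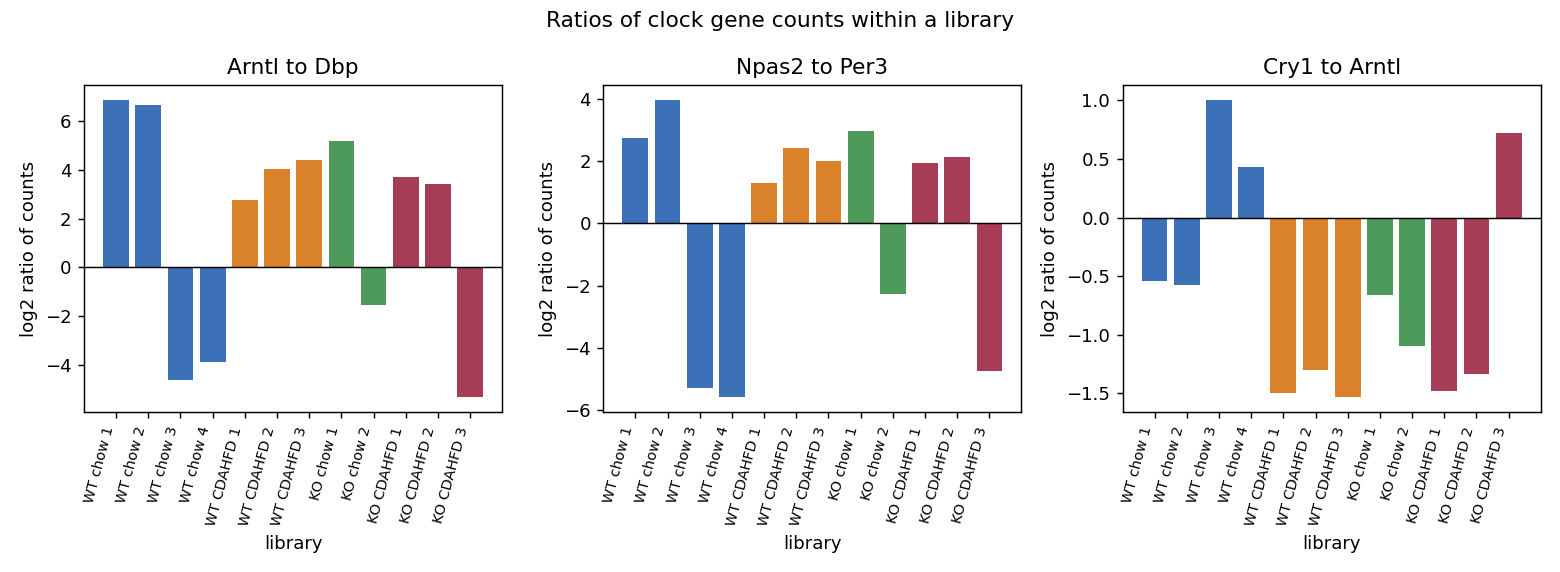
Log2 ratios of Arntl to Dbp, Npas2 to Per3 and Cry1 to Arntl counts in each library, coloured by group, with a line at 0. The first 2 ratios were below 0 in WT chow replicates 3 and 4, KO chow replicate 2 and KO CDAHFD replicate 3 and above 0 in the other 8 libraries.

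**Figure D3:**
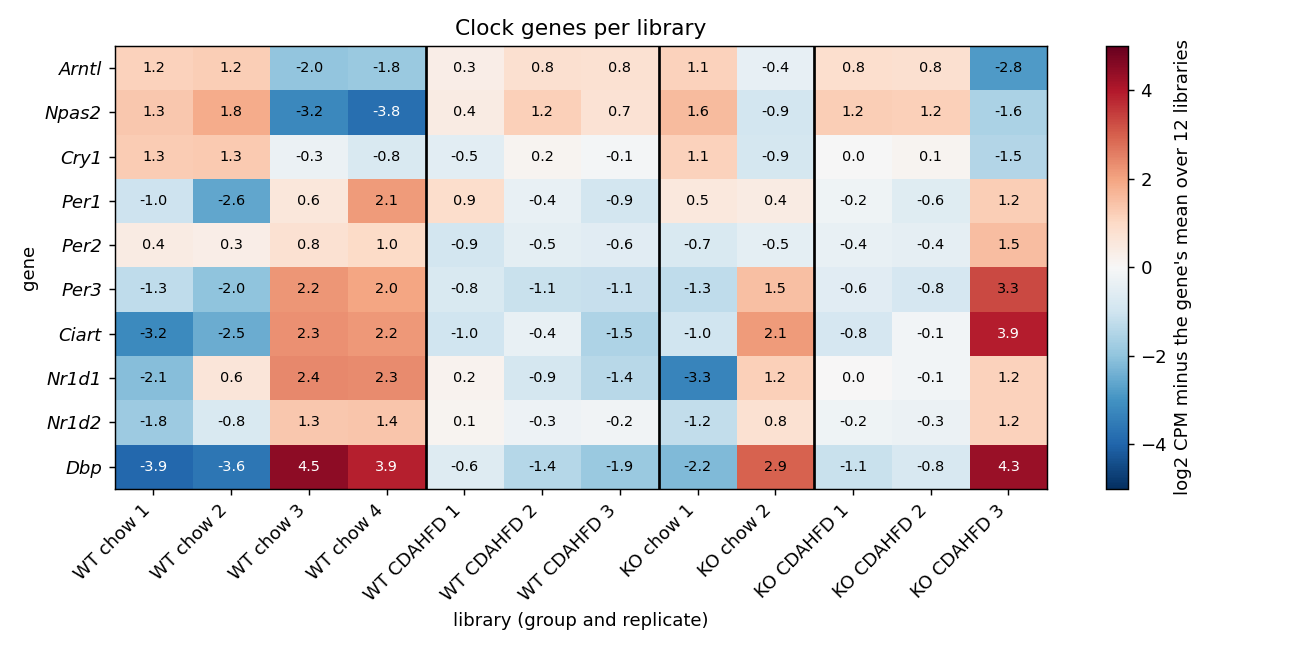
Log2 CPM of each clock gene (rows) in each library (columns) minus the mean of that gene over the 12 libraries, with the value in each cell and lines between groups. The WT CDAHFD columns lie close together, between -1.855 and 1.20, whereas WT chow spans -3.91 to 4.48 and KO CDAHFD replicate 3 departs from the other KO CDAHFD libraries in all 10 genes.

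Per kilobase of exon, on which genes can be compared, the mean level in WT chow was highest for Nr1d1 at 41.6 ± 35.0 CPM per kb (SD, n = 4). Dbp at 18.1 ± 21.6 and Nr1d2 at 16.6 ± 13.7 came next and did not differ beyond that spread. Cry1 at 6.196 ± 3.99, Per1 at 3.67 ± 4.29, Arntl at 3.51 ± 3.21 and Per2 at 3.08 ± 0.622 followed with overlapping spreads. Npas2 at 1.64 ± 1.83, Per3 at 1.08 ± 1.08 and Ciart at 0.749 ± 0.814 CPM per kb were the lowest. In the other groups the highest means did not differ beyond their spread: Nr1d1 at 16.4 ± 21.2 and Nr1d2 at 11.8 ± 10.05 in KO chow (n = 2), and Nr1d2 at 10.4 ± 1.46 and Nr1d1 at 9.37 ± 5.37 in WT CDAHFD (n = 3). In KO CDAHFD (n = 3) they were Nr1d1 at 19.1 ± 10.1, Nr1d2 at 14.5 ± 8.95 and Dbp at 13.7 ± 21.9. These lengths take all annotated exons of a gene together.

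The spread between livers of 1 group was measured as the SD of log2 CPM around the group means, pooled over the 4 groups. It was 3.41 for Dbp, which ranked 1 of the 17358 genes tested, 2.15 for Ciart (rank 6), 2.03 for Npas2 (rank 8), 1.87 for Per3 (rank 11) and 1.79 for Nr1d1 (rank 14). Arntl at 1.57 (rank 30), Per1 at 1.41 (rank 54), Nr1d2 at 1.17 (rank 125) and Cry1 at 0.95 (rank 397) were also above the 95th percentile of all genes, which was 0.80, while the median gene had an SD of 0.27. Per2 at 0.60 was at the 85.8th percentile and was the exception among the 10. The same 9 genes were above that percentile with library size as the only scaling. Clock, whose message is known to vary little over the day, had an SD of 0.22, below the median gene.

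**Figure D4:**
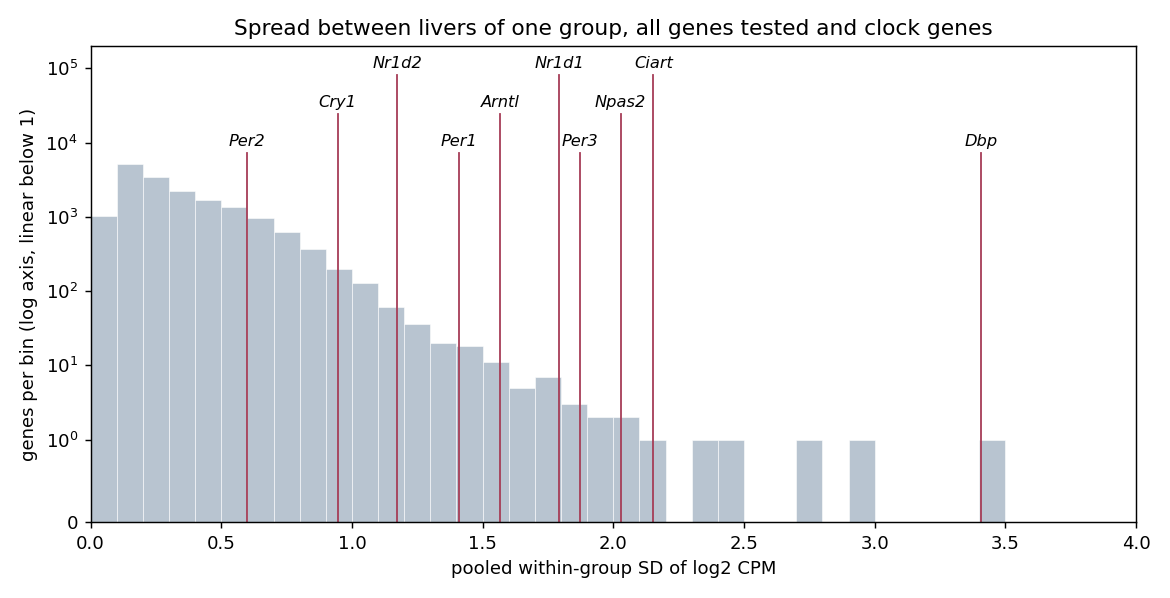
Number of genes (log axis, linear below 1) by pooled within-group SD of log2 CPM for all 17358 genes tested, with the 10 clock genes marked by lines. Dbp at 3.41 lies beyond all other genes, and Per2 at 0.60 is the clock gene nearest to the bulk.

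Differences between groups were tested with edgeR's quasi-likelihood test and Benjamini-Hochberg adjustment over all 17358 genes, with a gene called at an adjusted p under 0.05. For the loss of PPARα on chow (KO chow minus WT chow), 0 of the 10 clock genes were called, where 22.0% of all genes tested were called higher and 17.0% lower, and 1 clock gene had an unadjusted p under 0.05, as did 47.6% of all genes. That gene was Per2, which was lower by log2 -1.26 (SE 0.47, adjusted p = 0.051). Every WT chow library was above every KO chow library in Per2, as in 23.0% of all genes. DESeq2 called Per2 (adjusted p = 0.0171), but none of the edgeR fits that left out a WT chow library did. With library size as the only scaling its unadjusted p in edgeR was not under 0.05, where the median of all genes was 0.40. The difference was 0.19 (SE 0.94, adjusted p = 0.888) for Arntl and -1.23 (SE 1.90, adjusted p = 0.641) for Dbp. These 2 values turned on single KO chow libraries, since without KO chow replicate 2 Arntl was at 0.78 and Dbp at -5.43, and without replicate 1 they were at -0.78 and -0.25. Nr1d1 went from -1.34 (SE 1.12, adjusted p = 0.372) to -4.89 without KO chow replicate 2. A fit without either KO chow library leaves 1 library in that group, so the group has no spread of its own there. The median difference of the 10 genes was -0.36, against 0.00 for all genes.

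For the diet in WT liver (WT CDAHFD minus WT chow), 1 of the 10 clock genes was called lower and 0 higher, where 25.0% of all genes were called lower and 26.1% higher. Per2 fell by 1.27 on the log2 scale (SE 0.41, adjusted p = 0.0193), from 18.0 ± 3.64 CPM (SD, n = 4) to 7.48 ± 1.12 CPM (n = 3), lower in all 3 libraries than in any WT chow library. The call was lost without WT chow replicate 4 (log2 -1.13, adjusted p = 0.0544), without WT CDAHFD replicate 1 (-1.15, adjusted p = 0.0745) and with library size as the only scaling (-0.70, adjusted p = 0.170). That scaling moved the median of all genes to 0.51 in this comparison, so that Per2 was lower relative to it too. Dbp had a difference of -4.43 (SE 1.95, adjusted p = 0.0756), and DESeq2 called it (adjusted p = 0.0324), as did the fit without WT chow replicate 1 (-4.81, adjusted p = 0.044), in which Nr1d1 was also called (-2.51, adjusted p = 0.0279). With values in WT chow on both sides of those in WT CDAHFD, the Dbp difference is one of means. Arntl differed by 0.27 (SE 0.83, adjusted p = 0.804). The median difference of the 10 genes was -1.04, against -0.05 for all genes.

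For the genotype under CDAHFD (KO CDAHFD minus WT CDAHFD), 0 of 10 clock genes were called, where 0.0864% of all genes were called higher and 0.271% lower. Per2, Per3 and Ciart, 3 of the 10, had unadjusted p under 0.05, as did 8.77% of all genes, and Per2 differed by 1.19 (SE 0.42, adjusted p = 0.409). Per3 differed by 2.86 (SE 1.23, adjusted p = 0.526), and the difference of Ciart was 3.35 (SE 1.39, adjusted p = 0.513). All 3 values rested on KO CDAHFD replicate 3, and without it they were 0.23, 0.29 and 0.43. Dbp went from 4.03 (SE 1.96, adjusted p = 0.603) to 0.28 without that library, and Arntl from -0.36 (SE 0.89, adjusted p = 0.945) to 0.17. DESeq2 also called 0 of the 10. The median difference of the 10 genes was 0.75, against 0.01 for all genes.

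For the diet in KO liver (KO CDAHFD minus KO chow), 0 of 10 clock genes were called, where 3.76% of all genes were called higher and 2.44% lower, and DESeq2 called 0. Of the 10, 1 had an unadjusted p under 0.05, as did 23.1% of all genes. It was Per2, at 1.18 (SE 0.49, adjusted p = 0.172), and at 0.22 without KO CDAHFD replicate 3. The difference was -0.28 (SE 0.99, adjusted p = 0.904) for Arntl and 0.83 (SE 1.94, adjusted p = 0.845) for Dbp. Dbp ran from -2.92 without KO CDAHFD replicate 3 to 5.02 without KO chow replicate 2. The median difference of the 10 genes was 0.26, against -0.01 for all genes.

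The interaction of genotype and diet asks whether the diet difference was the same in KO as in WT liver. Of the 10 clock genes, 1 was called higher and 0 lower, where 8.63% of all genes were called higher and 14.5% lower. Per2 had an interaction of 2.45 (SE 0.64, adjusted p = 0.0146), since it was lower under CDAHFD in WT liver and, by its mean, higher in KO liver. Without KO CDAHFD replicate 3 the value was 1.48 (adjusted p = 0.00284), and without KO chow replicate 1 it was 2.34 and the call was lost (adjusted p = 0.0756). Nr1d1 had an interaction of 2.37 (SE 1.51, adjusted p = 0.294), which was 5.91 without KO chow replicate 2, with 1 KO chow library left. Dbp had an interaction of 5.26 (SE 2.80, adjusted p = 0.206), which was 1.504 without KO CDAHFD replicate 3 and 9.45 without KO chow replicate 2, and Arntl one of -0.55 (SE 1.29, adjusted p = 0.807). The median interaction of the 10 genes was 1.67, against 0.01 for all genes. The comparisons share libraries, so their values are not independent of each other.

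**Figure D5:**
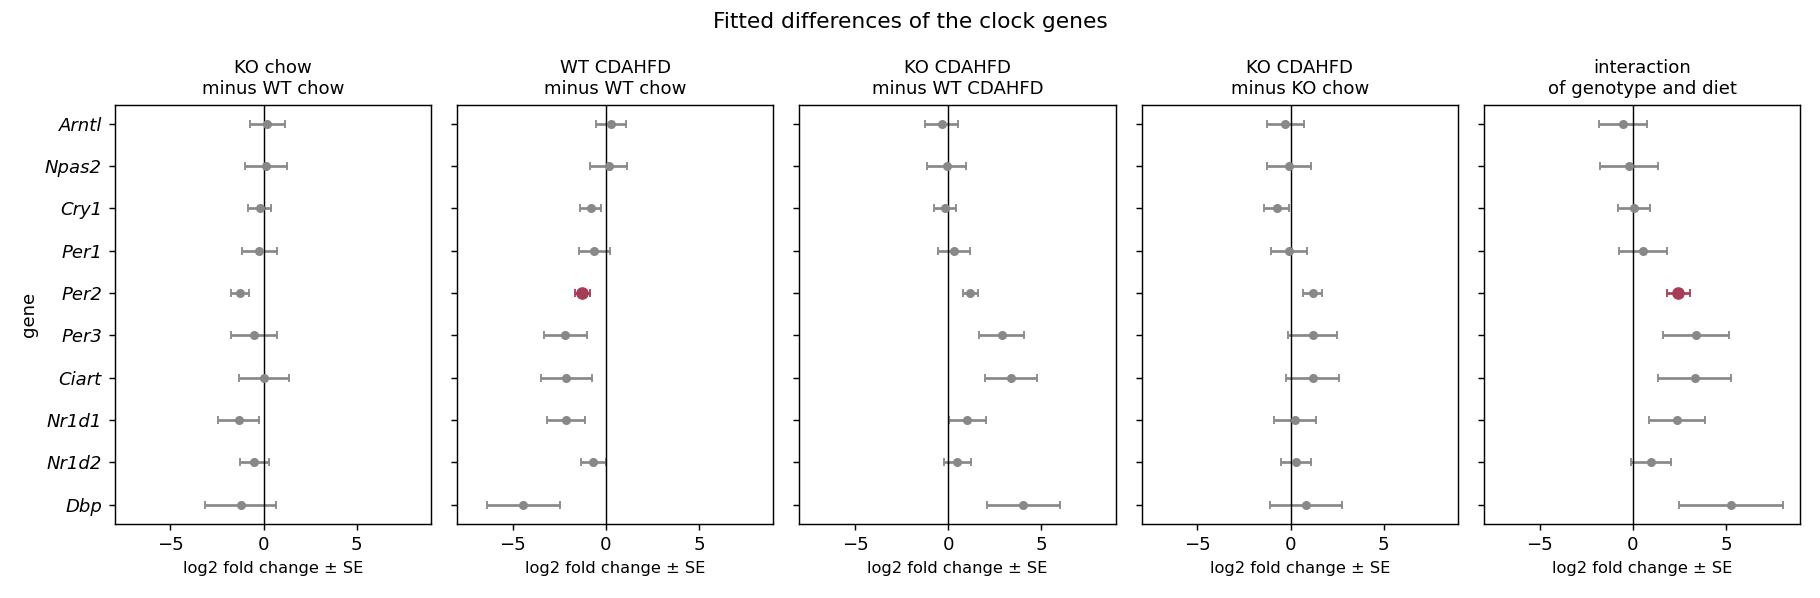
Fitted log2 fold change with its SE for each clock gene (rows) in the 4 comparisons and the interaction (panels), where red marks an adjusted p under 0.05 and grey the rest. Per2 is called in WT CDAHFD minus WT chow at -1.27 and in the interaction at 2.45, and its SEs of 0.41 to 0.64 are smaller than those of Dbp, 1.90 to 2.80.

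Of 9 other transcription factors of the loop and its output that are reported here, 8 were tested and Rorb was not. On chow, 2 were lower in KO than in WT liver and 0 higher, where 17.0% of all genes were lower and 22.0% higher: Clock, the partner of BMAL1, and Hlf, a PAR bZIP relative of Dbp. Clock fell by 0.63 (SE 0.18, adjusted p = 0.0126), from 83.7 ± 6.12 CPM (SD, n = 4) to 53.9 ± 3.397 CPM (n = 2). Hlf fell by 1.55 (SE 0.41, adjusted p = 0.00966). Without KO chow replicate 1 the calls of Clock (-0.56, adjusted p = 0.104) and Hlf (-1.13, adjusted p = 0.132) were lost. With library size as the only scaling Clock was at -0.23 (adjusted p = 0.284), where the median of all genes was 0.40.

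Under the diet in WT liver, 2 of these 8 were lower and 0 higher, where 25.0% of all genes were lower and 26.1% higher. Cry2, the second cryptochrome repressor, fell by 1.06 (SE 0.26, adjusted p = 0.00426). Hlf fell by 1.81 (SE 0.36, adjusted p = 0.00103). Hlf stood at 39.0, 48.9, 90.0 and 80.3 CPM in WT chow, and at 15.7, 16.4 and 23.3 CPM in WT CDAHFD. The call of Cry2 was lost with library size as the only scaling (-0.49, adjusted p = 0.121), where the median of all genes was 0.51. In both comparisons within KO liver or under CDAHFD, 0 of the 8 were called in either direction. Of all genes, 3.76% were higher and 2.44% lower in KO CDAHFD against KO chow. In KO CDAHFD against WT CDAHFD, 0.0864% were higher and 0.271% lower. In the interaction Cry2 and Hlf were called higher and 0 lower, where 8.63% of all genes were higher and 14.5% lower, with values given with the results for a closer look. Tef, the third PAR bZIP gene, Nfil3, which encodes a repressor at D-boxes, and Bhlhe40 and Bhlhe41, which encode the DEC repressors, were not called in any comparison. They had within-group SDs of 1.47, 1.04, 0.95 and 1.60 log2, all above the 95th percentile of all genes, and Rora, with an SD of 0.15, was not called either.

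Of 20 modifiers and cofactors of clock proteins, 2 rose and 4 fell in KO chow, 2 rose and 5 fell in WT CDAHFD, 0 were called in the comparisons within KO liver or under CDAHFD, and 1 was lower in the interaction. Of all genes, 22.0% rose and 17.0% fell in KO chow, 26.1% rose and 25.0% fell in WT CDAHFD, and 14.5% were lower in the interaction. In KO CDAHFD against KO chow 3.76% rose and 2.44% fell, and in KO CDAHFD against WT CDAHFD 0.0864% were higher and 0.271% lower. Csnk1e, which encodes casein kinase 1 epsilon that phosphorylates PER proteins, had the largest change among the called genes of this list. It was lowest in the 4 WT chow libraries, at 6.17 to 6.84 CPM, and stood between 14.3 and 21.5 CPM in the other 8. It rose by log2 1.23 in KO chow (SE 0.11, adjusted p = 3.9e-06) and by log2 1.55 in WT CDAHFD (SE 0.10, adjusted p = 1.3e-07), and its interaction was -1.12 (SE 0.15, adjusted p = 2.4e-04). Prkaa2, a catalytic subunit of AMPK, which marks CRY1 for degradation, fell by 0.76 in KO chow (SE 0.26, adjusted p = 0.0322). Its call was lost without WT chow replicate 3 (-0.62, adjusted p = 0.0761), without WT chow replicate 4 (-0.63, adjusted p = 0.0778) and without KO chow replicate 1 (-0.51, adjusted p = 0.286). Csnk2a1, a catalytic subunit of casein kinase 2, fell by 0.54 in WT CDAHFD (SE 0.10, adjusted p = 6.9e-04), and with library size as the only scaling it was at 0.019, where the median of all genes was 0.51, so that it was lower relative to that median too.

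Of 15 genes known as clock-controlled outputs of liver, 3 rose and 2 fell in KO chow, 3 rose and 4 fell in WT CDAHFD, 0 were called in the comparisons within KO liver or under CDAHFD, and 1 was higher and 2 lower in the interaction. The shares of all genes were 22.0% and 17.0% in KO chow, 26.1% and 25.0% in WT CDAHFD, and 8.63% and 14.5% in the interaction, higher and lower in turn. They were 3.76% and 2.44% in KO CDAHFD against KO chow, and 0.0864% and 0.271% in KO CDAHFD against WT CDAHFD. Elovl3, a fatty acid elongase, stood at 1376, 1292, 325 and 489 CPM in WT chow and at 5.09 to 119 CPM in all other libraries, the last value in KO chow replicate 1. It fell by 3.68 in KO chow (SE 0.91, adjusted p = 0.00631) and fell by 4.17 in WT CDAHFD (SE 0.78, adjusted p = 6.9e-04). The KO chow value was -5.69 without KO chow replicate 1. Rgs16, a regulator of G protein signalling, stood at 3.77, 36.0, 68.3 and 219 CPM in WT chow and fell by 5.48 in KO chow (SE 1.33, adjusted p = 0.0058) and fell by 3.22 in WT CDAHFD (SE 0.95, adjusted p = 0.0133), where it stood at 11.2, 11.2 and 3.93 CPM and overlapped WT chow. These calls were lost without KO chow replicate 1 (-4.97, adjusted p = 0.0694) and without WT CDAHFD replicate 3 (-2.87, adjusted p = 0.0542), and without WT chow replicate 4 the latter value was -2.02. In the interaction Rgs16 was at 5.97 (SE 1.56, adjusted p = 0.015) and Cdkn1a, a cell cycle inhibitor, at -3.99 (SE 1.04, adjusted p = 0.015), and without KO chow replicate 1 both calls were lost (5.49, adjusted p = 0.0899, and -3.50, adjusted p = 0.0647).

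Of 8 genes set by glucocorticoid or temperature, which can reset liver clocks, 1 rose and 0 fell in KO chow, 1 rose and 4 fell in WT CDAHFD, 0 were called under CDAHFD between genotypes, 2 fell in KO CDAHFD against KO chow, and 1 was higher and 1 lower in the interaction. Of all genes, 22.0% rose in KO chow, 26.1% rose and 25.0% fell in WT CDAHFD, 2.44% fell in KO CDAHFD against KO chow, and 8.63% were higher and 14.5% lower in the interaction. Sgk1, a glucocorticoid-induced kinase, stood at 20.8 to 30.4 CPM in WT chow and at 106 and 190 CPM in KO chow, a rise of log2 2.61 (SE 0.26, adjusted p = 8.2e-06). In WT CDAHFD, Pck1, which encodes the gluconeogenic enzyme PEPCK, fell by 1.78 (SE 0.39, adjusted p = 0.0021) and Tsc22d3, which encodes GILZ, fell by 1.53 (SE 0.39, adjusted p = 0.00524). Tsc22d3 was at -1.03 without WT chow replicate 4, still called. In KO CDAHFD against KO chow, Tat, a tyrosine catabolic enzyme, fell by 1.23 (SE 0.30, adjusted p = 0.0319) and Sgk1 fell by 1.17 (SE 0.28, adjusted p = 0.0305). Of the 5 fits that left out a library of that comparison, Tat was called in that without KO CDAHFD replicate 2 and not in the other 4 (-1.26 to -1.07, highest adjusted p = 0.136), and Sgk1 in those without KO chow replicate 1 and without KO CDAHFD replicate 3 but not in the other 3 (-1.14 to -0.70, highest adjusted p = 0.215). In the interaction Sgk1 was at -2.32 (SE 0.37, adjusted p = 6.2e-04) and Cirbp, a cold-induced RNA-binding protein, at 0.996 (SE 0.31, adjusted p = 0.0356), which was called in 5 of 12 fits that left out a library: those without any 1 of the 4 WT chow libraries and without WT CDAHFD replicate 1.

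The genes whose deviations from the group means were most like those of Arntl and of Dbp over the 12 libraries were sought among the 527 genes that had a mean level of 5 CPM or more and a within-group SD of 0.5 log2 or more. Among the 5 closest to Arntl by Pearson r were Clpx (0.990), Chka (0.986), Ypel2 (0.985) and St5 (0.983). Clpx, a subunit of a mitochondrial protease, ran from 76.4 to 630.4 CPM and Chka, choline kinase alpha, from 22.9 to 216 CPM. Closest to Dbp were Tef (0.985), Tmtc2 (0.983), Pcsk4 (0.965), Ldlrad4 (0.964) and Gys2 (0.962). Tef, which encodes a PAR bZIP factor like DBP, ran from 16.3 to 222.7 CPM and Gys2, liver glycogen synthase, from 62.5 to 336 CPM. These r are a description over points that share libraries and scaling, chosen as the highest of many, and carry no test.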

How the data were processed

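Poly-A selected liver RNA of 12 mice was sequenced by the authors as non-directional libraries. Reads were checked with FastQC 0.11.5 and aligned to GRCm38 with STAR 2.7.3a, per the submitters' processing notes. The program and annotation behind the counts are not given in the sources used here. The deposited values are unnormalized read counts per Ensembl gene, and the methods name DESeq2 for differential expression. The methods state 3 mice per group, whereas the labels gave 4, 3, 2 and 3 libraries, and the labels were used. Symbols, positions and exon lengths came from GENCODE M21, which held 52081 of the identifiers (94.08%).

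In R 4.3.3 with edgeR 4.0.16, genes kept by filterByExpr were scaled with TMM and fitted with 1 mean per group over the 12 libraries (glmQLFit, glmQLFTest), so that the groups shared the estimate of the spread. Adjusted p are Benjamini-Hochberg values over all genes tested. SEs are the log2 fold change divided by the square root of F, and SDs of log2 CPM used a prior count of 2. Alternatives were library size alone, relative log expression scaling, no filter, DESeq2 1.42.0, a replicate block, only the groups compared, and leaving out each library. Steps were tested on simulated data in which every gene had a typical within-group spread, the median over genes. That test cannot tell how well changes are found in the clock genes, whose spread was wider. Figures used Python 3.11.15 and matplotlib 3.10.9. The clock genes and the 4 other gene lists were chosen with earlier results of these data known. Named were all clock genes and transcription factors of the loop, the 2 called genes with the largest change of each other list and comparison, and the 5 genes most like Arntl and Dbp, some of which are not reported here. The lowest counts of Ciart, Dbp and Npas2 in a library were 2, 10 and 8, so counting error is large there. The SEs of these genes also hold their spread between libraries.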

Additional observations from a re-analysis of the deposited data

Results flagged for a closer look

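In 3 genes of the loop reported here, 1 of the 10 clock genes and 2 of 8 other transcription factors, the diet difference differed between genotypes by the test of the interaction itself (edgeR's quasi-likelihood test, Benjamini-Hochberg adjusted over all genes), where 8.63% of all genes were called higher and 14.5% lower. Per2 had an interaction of log2 2.45 (adjusted p = 0.0146). Its 3 WT CDAHFD libraries were below its 4 WT chow libraries, and its 3 KO CDAHFD libraries were above its 2 KO chow libraries. Without KO CDAHFD replicate 3, which held 33.7 CPM, the interaction was 1.48. Hlf had an interaction of 2.10 (SE 0.54, adjusted p = 0.0144) and was called in 11 of the 12 fits that left out a library, the exception being that without KO chow replicate 1 (1.70, adjusted p = 0.0871). It stood at 14.9 and 29.03 CPM in KO chow and at 19.6, 20.6 and 40.5 CPM in KO CDAHFD.

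Cry2 had an interaction of 1.19 (SE 0.40, adjusted p = 0.0484) and was called only in 3 of 12 such fits, those without WT chow replicate 1, KO chow replicate 2 or KO CDAHFD replicate 2, with values from 0.89 to 1.56 over the 12. Sampling hour and group cannot be told apart for these genes, and the part of single libraries beyond these values was not tested. Of the 10 clock genes in WT chow, the group of 4 libraries, 0 had a single library beyond Dixon's 95% critical value. That rule looks for 1 library apart from the rest. It could not show WT chow replicates 1 and 2 standing apart from replicates 3 and 4, so nothing is drawn from it.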

How the results depend on the processing

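The number of clock genes called moved with the processing, and the causes were not tested. For KO chow minus WT chow it was 0, and it stayed at 0 when a WT chow library was left out. It was 1 without a filter on low counts, with only the groups compared in the fit and with DESeq2 (Per2 each time). For WT CDAHFD minus WT chow it was 1, and 0 with library size as the only scaling, 4 without the filter (Per2, Per3, Nr1d1 and Dbp), 2 with DESeq2 (Per2 and Dbp) and 0 to 3 when a library was left out. For KO CDAHFD minus WT CDAHFD and for KO CDAHFD minus KO chow it was 0, and 1 without the filter (Per2). For the interaction it was 1, 3 without the filter (Per2, Per3 and Dbp), and 1 when a library of a group other than KO chow was left out. Fits without a KO chow library, which leave 1 in that group, are not in these numbers. The shares of all genes called without the filter, with only the groups compared or with a library left out are not given here. The counts under those settings therefore have no share beside them. The number of clock genes with their highest group mean in WT chow was 6, and 1 with library size as the only scaling. The share of all genes with their highest mean in WT chow is not given here for either scaling, so nothing is drawn from these counts. Arntl exceeded Dbp in 8 libraries, and Cry1 exceeded Nr1d1 in 2. Of the 10 genes most like Arntl or Dbp, 6 remained with Spearman's rho.

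The sign of the Arntl difference turned when a library was left out, with ranges of -0.78 to 0.78 for KO chow minus WT chow, -0.059 to 0.77 for WT CDAHFD minus WT chow, -0.73 to 0.17 for KO CDAHFD minus WT CDAHFD, -0.86 to 0.71 for KO CDAHFD minus KO chow and -1.14 to 0.42 for the interaction, and that of Dbp for KO CDAHFD minus KO chow, from -2.92 to 5.02. Of 50 differences of clock genes, 28 changed sign in at least 1 such fit, 19 with the replicate block and 5 with library size alone. The labels state no pairing of libraries across groups by replicate number. Of 15 same-numbered pairs, 3 had a correlation of deviations over 0.1 (range -0.24 to 0.27), and 4 of 12 libraries correlated best with their own number. Replicate 4 is in WT chow only, so the replicate block takes up that library whole. With the replicate block Per2 was still called in WT CDAHFD (-1.12) and the interaction (1.80), so the counts stayed at 1, and the count stayed at 0 in the other comparisons. The block turned Arntl in KO chow minus WT chow to -0.42, and Dbp to 3.15 there, -2.47 in KO CDAHFD minus KO chow and -2.35 in the interaction. Csnk2a1 turned with library size alone, to 0.034 for KO chow minus WT chow and to 0.019 for WT CDAHFD minus WT chow. That scaling moved the median of all genes to 0.40, 0.51, 0.06, 0.20 and -0.34 in the order above, and the share of called genes that were higher from 56.4% to 86.0%, 51.0% to 88.6%, 24.2% to 26.0%, 60.6% to 90.0% and 37.4% to 13.7%. Of the 17358 genes tested, DESeq2 called 6994 against 6763 for KO chow minus WT chow and 8741 against 8863 for WT CDAHFD minus WT chow. It called 240 against 62 for KO CDAHFD minus WT CDAHFD and 1885 against 1075 for KO CDAHFD minus KO chow. For the interaction it called 4498 against 4011.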
